A study of Drosophila melanogaster with 2 samples.

Results

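ChIP-seq regions at the genes for the subunits of the AMP-activated protein kinase were examined in adult male Drosophila melanogaster. The 3 genes were SNF4Agamma, AMPKalpha and alc, of 13968 protein-coding genes in all, and their regions were selected by the position of the summit, in the gene or within 1 kb of it. By this rule they held 7 of 2464 reproducible peaks, 60 of 30000 candidate regions of the pooled list, 51 of 30000 of replicate 1 and 57 of 30000 of replicate 2. All samples were of 1 group, whole adult males of unstated age from a transgenic line, Clk-GFP, that expresses the circadian transcription factor Clock (Clk) with green fluorescent protein at its C-terminus. Chromatin was sonicated and precipitated in 2 biological replicates. The description in the labels names an antibody against the fluorescent protein, while the antibody field names Clk, and the labels do not resolve this. The series has no second genotype, treatment or time, the time of day is not given in the labels, and whole animals mix all tissues. The promoter that drives the fusion is not given in the labels either. A reproducible peak is a region that the authors kept after thresholding on the irreproducible discovery rate (IDR). The signal value is the authors' own score of a region on a scale set by each library, so levels are compared only within a list, and a ratio between the replicates is read only against the same ratio over all paired peaks. Read depth was unknown, because the lists hold no read counts. The genes were picked with their peaks already known, so the values are given as descriptions, with no test.

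The AMP-activated protein kinase is a heterotrimer that senses low cellular energy. The alpha subunit is the kinase, the beta subunit is a scaffold that also binds glycogen, and the gamma subunit binds AMP, ADP and ATP. Once phosphorylated by upstream kinases such as Lkb1, the complex restrains lipid synthesis and growth through the TOR pathway and favours autophagy and fuel breakdown. In mammals it also phosphorylates cryptochrome, a clock repressor. In Drosophila AMPKalpha encodes the catalytic subunit, alc (alicorn) the beta subunit and SNF4Agamma (also named loechrig) the gamma subunit. Clk pairs with Cycle on E-box sequences, of which CACGTG is the textbook form.

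The reference sequence at 5 of the 6 reproducible peaks of SNF4Agamma is shown because these are regions of the kinase genes that the authors kept. Each is given on the plus strand of the RefSeq Release 6 assembly (dm6 coordinates), which is also the coding strand of SNF4Agamma, as the summit with 50 bp on either side, and is named by the distance of the summit from the gene's 5′ end. Capitals mark matches on either strand to the general E-box CANNTG or to the GAGA element GAGAG. The windows are chr3R:21157282-21157382, chr3R:21180543-21180643, chr3R:21193841-21193941, chr3R:21195681-21195781 and chr3R:21204615-21204715.
Peak at 16.6 kb: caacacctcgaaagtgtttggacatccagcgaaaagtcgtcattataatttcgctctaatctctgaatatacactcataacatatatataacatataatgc
Peak at 39.9 kb: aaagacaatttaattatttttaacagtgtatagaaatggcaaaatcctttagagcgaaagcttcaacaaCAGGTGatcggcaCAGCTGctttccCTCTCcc
Peak at 53.2 kb: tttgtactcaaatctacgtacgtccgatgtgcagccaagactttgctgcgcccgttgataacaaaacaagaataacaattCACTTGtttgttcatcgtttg
Peak at 55.0 kb: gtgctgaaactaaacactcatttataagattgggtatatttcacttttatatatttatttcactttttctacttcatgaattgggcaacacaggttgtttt
Peak at 63.9 kb: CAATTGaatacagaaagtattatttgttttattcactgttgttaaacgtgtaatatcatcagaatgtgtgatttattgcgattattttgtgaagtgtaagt

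None of the windows of the 6 peaks, and none of the 6 whole regions, held CACGTG on either strand. The same was true of the peak near alc. Over all 2464 reproducible peaks, 1.34% had CACGTG within 50 bp of the summit and 6.09% had it anywhere in the region. The general form CANNTG, which includes CACGTG, stood in 4 of the 7 windows of the kinase genes, all 4 of them in SNF4Agamma, against 38.5% of all reproducible peaks. The peak at 39.9 kb held a pair of them, CAGGTG and CAGCTG, and also the only GAGAG of the 7 windows, read as CTCTC on the plus strand. GAGAG stood in 14.3% of all windows. The letters TATCGAT (the DRE core, in 4.71% of all windows), TTATGTA (a core of the D-box read by the clock proteins Vrille and Pdp1, in 2.76%) and TGACTCA (the AP-1 site, in 1.06%) were in none of the 7, searched on both strands. Over the whole regions CANNTG was in 7 of the 7, GAGAG in 2 and TTATGTA in 1, the peak at 44.2 kb. TATCGAT and TGACTCA were in none of the regions. The shares over all reproducible peaks are not given here for these letters in whole regions. A missing match says only that the letters are not in the stretch searched.

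SNF4Agamma carried 6 reproducible peaks, alc had 1 within the 1 kb margin and AMPKalpha had none. Of all protein-coding genes 20% had at least 1 reproducible summit in the gene or within 1 kb. Each of the 3 had a pooled candidate, as had 72.8% of all protein-coding genes. The genes differ much in size, and longer genes more often had a peak. SNF4Agamma spans 73.5 kb on chromosome 3R (21140739 to 21214269, plus strand) with 16 transcripts from 11 start sites. AMPKalpha spans 3.4 kb on chromosome X (1375536 to 1378896, plus strand) with 1 start site, and alc spans 2.6 kb on chromosome 2R (9135375 to 9137933, minus strand) with 2. Of protein-coding genes under 5 kb, 16.1% had a reproducible summit, and of those of at least 50 kb, 38.3%.

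**Figure D1:**
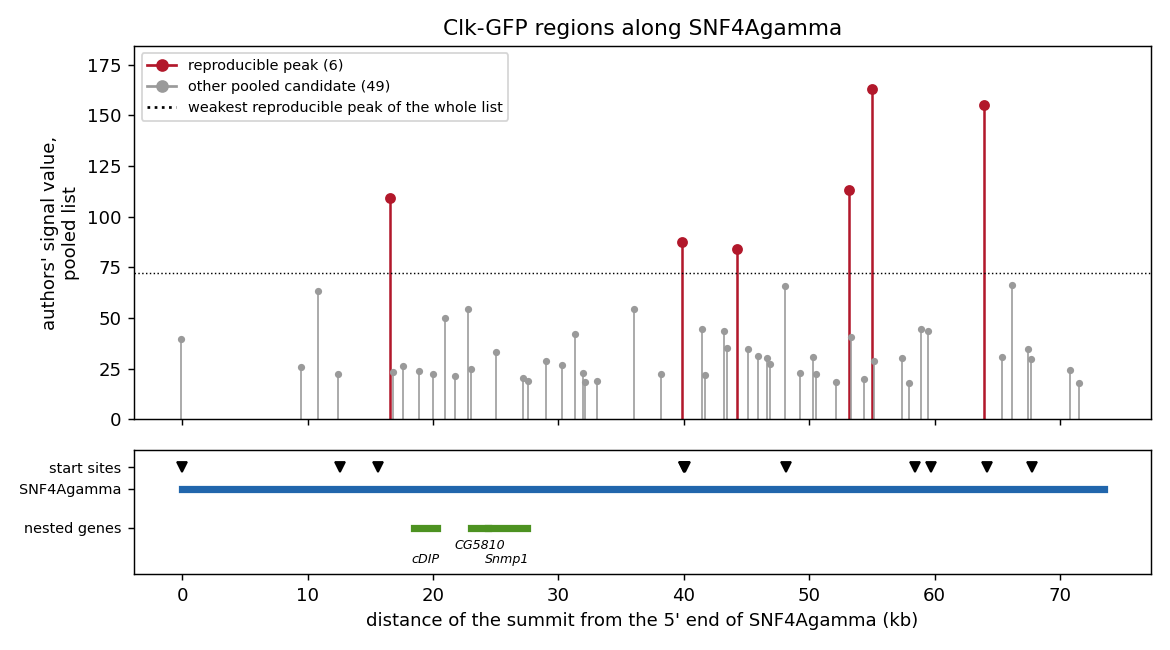
Signal value in the pooled list (vertical axis) of the 55 candidate regions of SNF4Agamma against the distance of their summits from the gene's 5′ end in kb, with the 6 reproducible peaks in red, the other 49 in grey and the weakest reproducible peak of the whole list as a dotted line. Triangles mark the gene's start sites and green bars the genes nested within it, and 5 of the 6 red peaks lie between 39.9 and 63.9 kb.

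The strongest SNF4Agamma peak lay 55.0 kb into the gene, in an intron (21195521 to 21195940, summit 21195731), and the closest start site was 3450 bp away. Its signal value was 163 in the pooled list, 129 in replicate 1 and 29.0 in replicate 2, and its ranks were 581, 409 and 2541. It was therefore among the strongest 2464 regions of replicate 1 but just outside that number in replicate 2. The next peak in strength lay 63.9 kb in (21204455 to 21204874, summit 21204665), 263 bp from a start site used by 1 transcript near the 3′ end of the gene. It scored a signal value of 155 in the pooled list, 111 in replicate 1 and 49.2 in replicate 2, at ranks 638, 553 and 901. The replicate 2 rank belongs to a region 130 bp from the pooled summit, while the region nearest to that summit ranked 3772.

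The third, at 53.2 kb (21193681 to 21194100, summit 21193891), was intronic and lay 5025 bp from any start site, the farthest of the 6. It had a signal value of 113 in the pooled list, 87.4 in replicate 1 and 54.9 in replicate 2, at ranks 1162, 852 and 714. It lay 1840 bp from the strongest peak, the closest pair in the gene. The peak at 16.6 kb (21157122 to 21157541, summit 21157332) was the only one in the first 24.5 kb of the gene, 970 bp from a start site shared by 3 transcripts. The signal value was 109 in the pooled list, 63.5 in replicate 1 and 40.2 in replicate 2, at ranks 1239, 1467 and 1363, a close match between replicates.

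The peak at 39.9 kb (21180383 to 21180802, summit 21180593) lay 195 bp from a cluster of 3 start sites. Its signal value was 87.6 in the pooled list, 66.5 in replicate 1 and 19.3 in replicate 2, at ranks 1805, 1362 and 5444. Replicate 2 thus ranked it well outside its strongest 2464. The weakest of the 6 lay at 44.2 kb, 3882 bp from a start site. Its pooled and replicate 1 summits were intronic, while its replicate 2 summit lay in a 5′ untranslated region. The signal value of this peak was 84.1 in the pooled list, 60.8 in replicate 1 and 30.2 in replicate 2, at ranks 1936, 1599 and 2351. The signal of the strongest peak was 1.93-fold that of the weakest, and the median over the 6 was 111, against 109 over the whole reproducible list and 1874 at its top.

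Of the 6 pooled summits 4 were intronic and 2 lay within 500 bp of a start site. Over all reproducible peaks 64.3% lay that near a start site and 27.6% in an intron. Seen from the start sites, 4 of the 11 of SNF4Agamma had a reproducible summit within 500 bp, namely the cluster at 21180788 to 21180841 and the site at 21204928. The annotated 5′ end of the gene had none, and its nearest reproducible peak of the gene lay 16593 bp away. A weaker candidate (summit 21140615, signal value 39.4 in the pooled list, rank 6713) lay 124 bp from that 5′ end, and 9 of the 11 start sites had a candidate of any strength within 500 bp. The nearest reproducible peak before the gene (summit 21138593, rank 1726) lay 2146 bp upstream, inside meigo, 99 bp from a start site, and is outside the 1 kb rule. The next one past the 3′ end lay 9.33 kb away. The genes cDIP, CG5810 and Snmp1, which lie inside SNF4Agamma, held no reproducible summit. Snmp1 encodes a membrane protein of pheromone-sensing neurons, and cDIP encodes a secreted protein that binds cell surface receptors of the Dpr family.

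Strong candidates continued below the authors' threshold. The weakest reproducible peak of the list had a signal value of 72.4 at rank 2464, and the 3 strongest candidates of SNF4Agamma outside the list had 66.4, 65.5 and 63.1 at ranks 2819, 2877 and 3056. The 65.5 candidate (summit 21188842) lay 24 bp from a start site of 2 transcripts and ranked 3038 in replicate 1 and 3350 in replicate 2. Its region held CACGTG, with the centre 66.5 bp to the right of the summit, the best ranked of the gene's regions to hold that sequence. Of 12 CACGTG sites in the gene and its margins, 2 lay in a pooled region and none in a reproducible one. Pooled regions covered 27.9% of these bases and reproducible regions 3.34%. The other of the 2 sites lay in an intron 24.5 bp to the left of a weak summit (21169749, signal value 28.8, rank 11853), which ranked 6325 in replicate 1, while no replicate 2 region covered that site. The sites are printed with 12 bases to each side on the plus strand (chr3R:21188894-21188923 and chr3R:21169710-21169739), with the E-box in capitals.
E-box near the start site: cggatgctcagcCACGTGacttttgaattt
E-box in the intron: caaaacccaaaaCACGTGactgcgccatcg

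Candidates of any strength were dense along SNF4Agamma for a gene of its length. The pooled list held 55, or 0.728 per kb, replicate 1 held 46 and replicate 2 held 50. Over all protein-coding genes the median was 0.297 per kb and the 95th percentile 0.999, and alc had 0.877. The median over protein-coding genes of at least 50 kb was 0.156 per kb. Of these 313 genes 1, the clock gene Pdp1 at 0.846 per kb, had a higher density. By reproducible peaks, 8 of the 313, or 2.56%, had 6 or more, and 4 had more than SNF4Agamma, namely CG46467, Glut4EF and sbb with 9 and Pdp1 with 8. CG46467 and Glut4EF overlap. Over all protein-coding genes 0.129% had 6 or more. The pooled signal values of the 55 ran from 17.7 to 163 with a median of 30.1. By position, 35 summits were intronic, 13 lay within 500 bp of a start site, 5 in coding exons and 2 in 5′ untranslated exons. Of the 13, 5 belonged to start sites of the nested genes. Among the summits in coding exons, 21159599 lay inside cDIP and 21165741 inside Snmp1. From the 5′ end, 12 candidates and 1 reproducible peak fell in the first 24.5 kb, 22 and 2 between 24.5 and 49.0 kb, and 20 and 3 in the rest. The remaining candidate lay upstream of the 5′ end, within the margin.

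**Figure D2:**
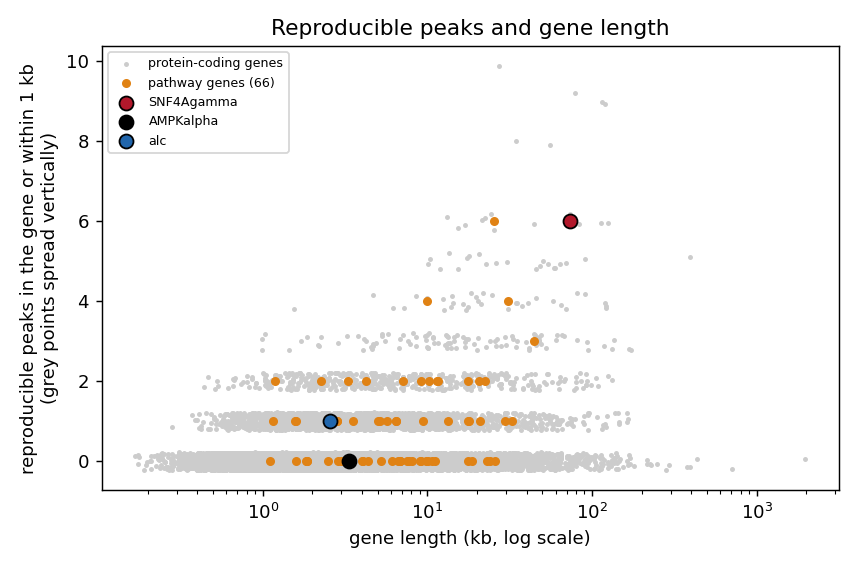
Number of reproducible peaks in the gene or within 1 kb (vertical axis, grey points spread for display) against gene length in kb on a log axis, for all protein-coding genes, the 66 pathway genes and the 3 kinase subunit genes. SNF4Agamma stands at 6 peaks and 73.5 kb, while alc and AMPKalpha lie among the many short genes with 1 or 0 peaks.

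The 5 protein-coding genes most like SNF4Agamma were taken as those that also had 6 reproducible peaks, ordered by the difference in rank of the strongest peak in the pooled list (581 for SNF4Agamma). They were CG14434 (rank 585, a difference of 4), CG1677 (551, a difference of 30), atos (287, a difference of 294), crp (919, a difference of 338) and tai (171, a difference of 410). The measure rests on 1 pooled list. Their candidates numbered 14, 30, 22, 23 and 34, against 55 at SNF4Agamma. Their lengths were 15.3, 125, 21.5, 24.2 and 83.4 kb, against 73.5 kb. CG14434, atos and crp were thus much shorter genes, and the counts are not densities. Per kb these shorter genes held more candidates than SNF4Agamma, which had 0.728 per kb. CG1677 and tai held fewer, at 0.237 and 0.398 per kb.

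The replicates shared part of these regions. Of the 55 pooled candidates of SNF4Agamma, 27 or 49.1% had a summit within 150 bp in both replicates, 11 in replicate 1 only, 12 in replicate 2 only and 5 in neither. Over all 30000 pooled candidates 35.6% had one in both. All 6 reproducible peaks had a region in both replicates, and 4 of the 6 were among the strongest 2464 of each, against 68.8% of all reproducible peaks. All 6 were among the strongest 2464 of replicate 1 and 4 among those of replicate 2. Where more than 1 candidate lay within 150 bp, the strongest was taken. With the nearest one instead, the peak at 63.9 kb had a replicate 2 rank of 3772 and the count was 3 of 6.

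The ratio of replicate 1 to replicate 2 signal varied along the gene. Over all 2398 paired reproducible peaks its median was 1.75, and the middle 90% ran from 0.964 to 3.34. For SNF4Agamma the ratios were 1.58 at 16.6 kb, 3.45 at 39.9 kb, 2.02 at 44.2 kb, 1.59 at 53.2 kb, 4.46 at 55.0 kb and 2.25 at 63.9 kb, with a median of 2.13. With the strongest candidates paired, the peaks at 39.9 and 55.0 kb were above the 95th percentile of all paired peaks, and the other 4 were within the middle 90%. With the nearest candidates paired, for all peaks alike, the middle 90% ran from 0.943 to 3.48. The peak at 39.9 kb was then within it, while 63.9 kb, at 4.75, joined 55.0 kb above it and 53.2 kb, at 0.923, was below it. Only the peak at 55.0 kb was above the 95th percentile under both pairings. The paired summits lay 14 to 235 bp apart with the strongest candidates, against a median of 31 bp over all paired peaks, and 1 to 141 bp apart with the nearest, against a median of 30 bp. The 235 bp gap, at 53.2 kb, came from the choice of candidate. Replicate 1 had a region on each side of the pooled summit there, and the weaker of them lay 1 bp from the replicate 2 summit.

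**Figure D3:**
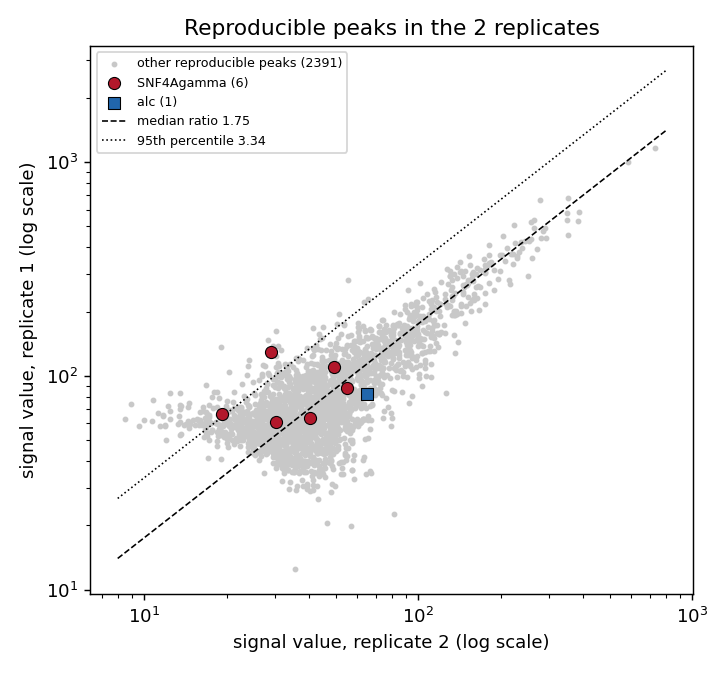
Signal value in replicate 1 against replicate 2, both on log axes, for the paired reproducible peaks, with the 6 SNF4Agamma peaks in red and the alc peak in blue. The strongest candidates are paired, the dashed line marks the median ratio of 1.75 and the dotted line the 95th percentile of 3.34, above which the SNF4Agamma peaks at 39.9 and 55.0 kb lie with this pairing.

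AMPKalpha, the gene of the catalytic subunit, had no reproducible peak in any part, and the nearest one lay 23.7 kb from its start site. Of protein-coding genes on X, 14.6% had one in the gene or within 1 kb. The single pooled candidate that met the rule (chromosome X, 1379309 to 1379728, summit 1379519) lay past the 3′ end of AMPKalpha, inside an intron of CG3719, a gene on the other strand whose 3′ end overlaps it. Its signal value was 34.6 in the pooled list, 22.1 in replicate 1 and 11.4 in replicate 2, at ranks 8424, 9298 and 16412. It was thus a weak region in each list. Each replicate had 1 further region at AMPKalpha that the other did not share, in the 3′ untranslated region in replicate 1 (summit 1378483, signal value 19.4, rank 12239) and in a coding exon in replicate 2 (summit 1377672, signal value 10.7, rank 18859). No list had a summit within 1 kb of the AMPKalpha start site, and the closest, that of replicate 2, lay 2136 bp away.

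The gene of the beta subunit, alc, had 1 reproducible peak by the rule (chromosome 2R, 9138707 to 9139126, summit 9138917), 984 bp upstream of its 5′ end. That summit lay inside CG44286 and CG8788, a pair of genes annotated over the same span on the other strand, and 165 bp from a start site of CG44286. It reached a signal value of 148 in the pooled list, 81.9 in replicate 1 and 65.3 in replicate 2, at ranks 702, 954 and 493. The replicate summits were 1 bp apart and the ratio was 1.25, with either pairing. The start sites of alc itself had a weaker candidate (summit 9137354), 16 bp from the nearer site. It had a signal value of 46.3 in the pooled list, 39.1 in replicate 1 and 9.69 in replicate 2, at ranks 5111, 3346 and 22715, so the replicates differed widely on it. The remaining pooled candidates were one in a coding exon of alc (summit 9135885, signal value 40.1, rank 6511) and one in a coding exon of the overlapping gene Hydr1 (summit 9134539, signal value 20.4, rank 23378). With a margin of 500 bp, or with each peak given to the gene of the nearest start site, alc had no reproducible peak.

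**Figure D4:**
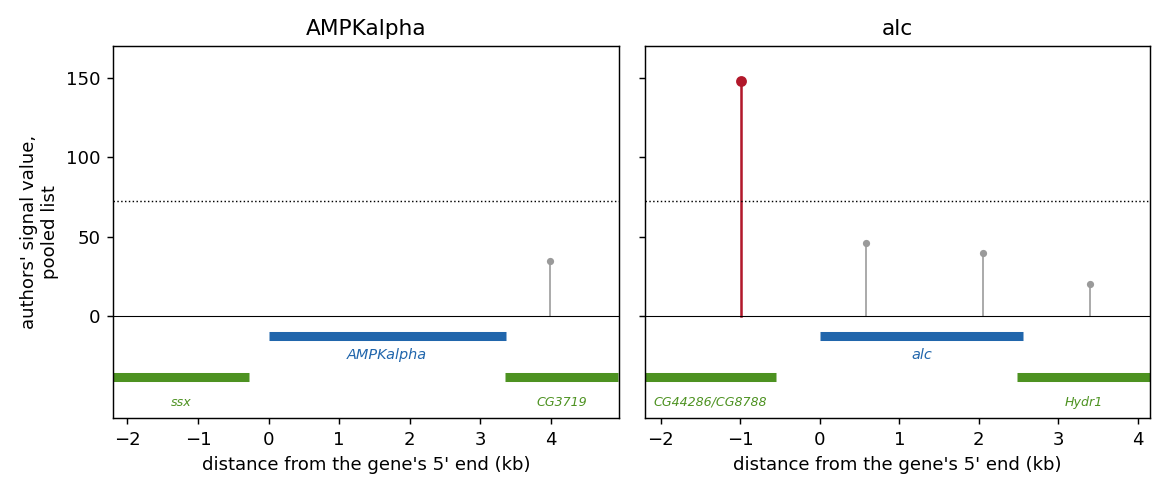
Signal value in the pooled list (vertical axis) of candidate regions at AMPKalpha and alc against the distance from each gene's 5′ end in kb, with each gene in blue, neighbouring genes in green, the reproducible peak in red and other candidates in grey. The dotted line is the weakest reproducible peak of the whole list (72.4), and the only region above it lies 984 bp upstream of alc within CG44286 and CG8788.

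Genes that act with the kinase were counted in 5 lists. Of the 68 listed symbols 66 matched the annotation, 5 of them through a synonym. Of the 66 genes 34, or 51.5% (95% exact binomial interval 38.9 to 64.0), had a reproducible summit in the gene or within 1 kb, against the 20% of all protein-coding genes. The listed genes were longer, with a median of 6.97 kb against 2.16 kb. Among those of 5 kb or more the share was 54.5% against 31.8% of all genes of that size, and among shorter ones 45.5% against 16.1%. The lists differ in length as well. The kinases had a median of 9.02 kb, and of all protein-coding genes of 5 to 10 kb 28.5% had a peak. The transcription partners had a median of 17.8 kb, and of all genes of 10 to 20 kb 34.0% had one. These shares are counts beside a background, without a test, and the interval covers counting over genes only. It takes the genes as independent, although some share a peak. The lists were chosen with earlier results of these data known, so the gap to the background cannot be read as a test. For 26 of the 34 the best peak was within 500 bp of a start site of any gene, as were 64.3% of all reproducible peaks. Atg18a and ERR shared their best peak (summit 8186878, rank 175), which was 21 bp from a start site and so counts for both genes.

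Among kinases upstream of or related to the AMP-activated kinase, 4 of 11 had a peak. They were Nuak at rank 306, Mo25 at rank 501, par-1 at rank 1090 and Sik3 at rank 2036. Mo25 encodes the scaffold that works with Lkb1, while Nuak, par-1 and Sik3 encode related kinases whose mammalian counterparts Lkb1 activates. The gene of the activating kinase, Lkb1, and CG17698 had weaker candidates only. In the TOR list, where the symbols Tor and FLCN were not matched and are not analysed here, 6 of 14 had a peak, led by Sesn at rank 91 (signal value 393, 220 bp from a start site), which encodes the stress protein Sestrin, followed by Thor at 527, S6k at 770 and Akt at 1181. The TOR complex genes raptor and rictor, the gene of the TOR inhibitor Tsc1 and gig, which encodes its partner, had none. In the list of genes that start autophagy 5 of 9 had a peak, led by Atg18a at rank 175, Atg17 at 282, Atg9 at 796 and Atg1 at 1547. Atg1 encodes the kinase that the AMP-activated kinase phosphorylates in mammals.

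Of the lipid and sugar genes 11 of 19 had a peak. The highest ranked were Glyp, which encodes glycogen phosphorylase, at rank 112 (signal value 359), the lipase gene bmm at 563, the lipid droplet gene Lsd-2 at 725 and bigmax, which encodes a partner of the sugar sensor Mondo, at 730. The gene of acetyl-CoA carboxylase, ACC, a textbook substrate of the kinase, had 1 peak at rank 1635 (signal value 92.9, 116 bp from a start site). Of the transcription partners 8 of 13 had a peak, led by REPTOR at rank 46 (signal value 505, 166 bp from a start site), followed by ERR at 175, Atf3 at 185 and foxo at 1034. REPTOR, which encodes a transcription factor held back by TOR, had 6 reproducible peaks, the same number as SNF4Agamma in a gene of 25.5 kb. No reproducible summit was found at srl, Sirt1, HDAC4, REPTOR-BP or Mitf.

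**Figure D5:**
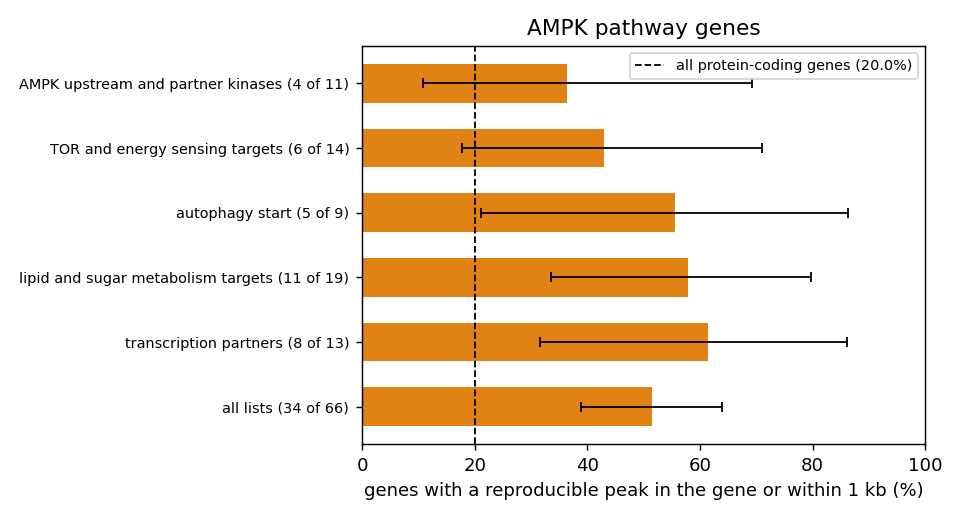
Percent of genes with a reproducible peak in the gene or within 1 kb (horizontal axis) for the 5 pathway lists and for all 66 genes together, with 95% exact binomial intervals as error bars and the 20% of all protein-coding genes as a dashed line. The shares run from 36.4% for the kinases to 61.5% for the transcription partners, whose genes are longer, and the dashed line does not take length into account. The lists were chosen with earlier results of these data known, so the intervals are no test against the dashed line.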

How the data were processed

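The deposited text notes list alignments on dm6 and dm3, and name for each candidate list the replicate alignments behind it and a further shared file whose role they do not state. The labels name a possible control experiment. Which aligner, peak caller and threshold the authors used is not given in the sources used here. The dm3 lists were not used here. Each dm6 candidate list held 30000 regions, so weaker regions were not seen. The deposited signal value, a score set by each library, was used for ranks within a list, and the −log10 q-value column was deposited by the authors too but not used for ranking. Read depth is unknown, so the precision of a single signal value cannot be given.

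Genes and start sites were taken from Ensembl release 115, on dm6 coordinates, and sequence from RefSeq Release 6, with positions written 1-based. No region ran past a chromosome end. A region belonged to a gene if its summit lay in it or within 1 kb. It was paired with the strongest replicate candidate within 150 bp. Motifs were counted within 50 bp of summits. The gene assignment, pairing and motif search were checked on simulated data. Both samples formed 1 group, as biological replicates with separate biosample records per the labels. No comparison between groups was possible. Shares of genes have exact binomial (Clopper-Pearson) intervals, which cover counting error only. The alternatives changed the gene window, assignment, list, replicate, pairing distance, start site distance and motif window.

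Named were the members with their reproducible peaks and strongest candidates inside and just outside the list, their neighbours, the up to 4 highest ranked genes of each of 5 pathway lists and the 5 most like genes. Lkb1, CG17698, raptor, rictor, Tsc1, gig, ACC, srl, Sirt1, HDAC4, REPTOR-BP, Mitf, the long genes with more peaks and the candidate at the 5′ end of SNF4Agamma were chosen after values were seen. A gene of the lists and the sequence of a peak are not reported here. The members and lists were chosen with earlier results of these data known. The lists were read with pandas 2.3.3 under Python 3.11.15, intervals came from SciPy 1.17.1, arrays from NumPy 2.4.6 and plots from matplotlib 3.10.9.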

Additional observations from a re-analysis of the deposited data

How the results depend on the processing

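The count of reproducible peaks at SNF4Agamma was 6 with a 500 bp window, in the gene body, by overlap and by nearest start site, and 7 with a 5 kb window. It was 3 with the stronger 50% of the list. To leave out 1 replicate, the strongest 2464 regions of the other were taken in place of the reproducible list, here and below. The count at SNF4Agamma was then 7 in replicate 1, where the peak at 53.2 kb counted with the regions at ranks 852 and 2180. In replicate 2 it was 5, with none at the peaks at 39.9 and 55.0 kb. These included a region (summit 21206762, rank 1644) that lay at no reproducible peak. AMPKalpha had 0 under every alternative run. The count at alc was 0 with a 500 bp window, in the gene body and by nearest start site, and 1 under the others, with or without either replicate. Of the 60 pooled candidates at the 3 genes, 31 were shared by the replicates. The count was 17 when only the strongest 10000 candidates of each replicate were used. With the other pairing rules it ran from 23 to 41. The share of genes with a peak was 16.1% at start sites only, 34.8% among genes of at least 20 kb, 27.5% among genes with a candidate and 11.7% with the stronger 50% of the list. It ran from 19.4% to 20% without 1 replicate. The count of pathway genes fell from 34 to 20 with the stronger 50% of the list, was 30 at start sites only and ran from 34 to 36 without 1 replicate. These moves follow from fewer or other regions and genes being counted. The median replicate ratio at SNF4Agamma was 1.65 over all paired candidates and 2.73 with the nearest candidate in place of the strongest, the latter chosen after seeing the data. That choice changed the ratio at 53.2 kb from 1.59 to 0.923 and at 63.9 kb from 2.25 to 4.75. CACGTG was found in 0 of 7 peaks in each window. No paired analysis was possible because the series has 1 group. Unknown depth limits how firmly single signal values and weak candidates can be read, and a missing peak says only that none was listed.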
